A study of Danio rerio with 6 samples.

Results

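A set of 100 features was at least 3-fold lower in the hearts of tnnt2a morphant zebrafish embryos than in wild-type hearts. A feature here is one row of the authors' expression table, an assembled transcript group with an identifier and a GRCz10 locus. The members were selected on the 2 expression values that the authors deposited for each feature, in FPKM (fragments scaled to the length of the transcript and to the size of the library). The wild-type value had to be at least 3 times the morphant value, both values had to be 1 FPKM or more, and the larger one had to lie from 5 to below 1000 FPKM. The locus had to be from 500 to below 200000 bp wide, its coordinates had to be on no other row, and the part of chromosome 4 starting at 30000000 or beyond was left out. Of 16383 listed features, 8054 met every condition other than the fold and are called eligible below, and the members are 1.24% of these. The fold and the levels of the members therefore describe how they were chosen and carry no test.

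The morphant hearts came from embryos injected at the 1-cell stage with 1 ng of a morpholino against tnnt2a, and the others from embryos labelled wild-type. The sources used here do not give the strain of the embryos or say whether wild-type embryos received any injection, so injection and loss of tnnt2a cannot be told apart. Both groups were dissected at 54 hours post fertilisation (hpf), with 3 libraries each, and every library was made from a pool of about 100 hearts. A morpholino is a synthetic oligonucleotide that pairs with an RNA and blocks its translation or splicing. The 25-base oligonucleotide used to make the morphant hearts, and its complement, are shown because every comparison rests on them. The complement is written in the reverse direction, so that its first base pairs with the last base of the oligonucleotide. Capitals mark the 3 bases that read as a start codon in the complement.
tnnt2a morpholino: CATgtttgctctgatctgacacgca
complement of the morpholino: tgcgtgtcagatcagagcaaacATG

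The gene tnnt2a encodes cardiac troponin T, which anchors the troponin complex to the thin filament and makes contraction of heart muscle respond to calcium. Zebrafish embryos without it form a heart that does not beat, the silent heart phenotype. They survive for days without circulation because oxygen reaches their tissues by diffusion. In the embryonic heart, contraction and blood flow are known to influence gene expression in the muscle wall, in the endocardium that lines it and in the forming valves.

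The table holds 1 merged value per group, so no spread between the pools can be given beside any level, and sequencing depth is unknown. The only measure of replicate error is the authors' own Cuffdiff test (q-value, a p-value adjusted for multiple tests), and a q-value below 0.05 is called below. Rows with p-values above 0.767 are not in the table as used here, and features that hardly differ are therefore under-represented among the eligible ones. The files do not pair features with gene names and no genome or annotation of the same build was used here, so the members are given by position. Which genes, exons, introns or untranslated regions lie there, and whether tnnt2a itself is among them, is not analysed here. In these pooled tissue samples, fewer cells of a type and less RNA per cell cannot be told apart.

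The members had a median of 3.33 FPKM in morphant hearts and 16.4 FPKM in wild-type hearts. Their quartiles were 1.80 and 5.95 FPKM in morphants, against 8.22 and 33.5 FPKM in wild type. The median log2 fold (morphant over wild type) was -2.16, with quartiles of -2.70 and -1.85, and the extremes were -6.67 and -1.59. Over all 8054 eligible features the median log2 fold was 0.10. The eligible features had median levels of 14.4 FPKM in morphants and 14.1 FPKM in wild type, so the members stood near the middle of the eligible range in wild-type hearts and low in it in morphant hearts. Together the members summed to 926 FPKM in morphants and 5106 FPKM in wild type, which was 0.118% of all listed FPKM in morphants and 0.671% in wild type. The 5 members with the highest wild-type values made up 45.9% of the members' sum in morphants and 46.8% in wild type.

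**Figure D1:**
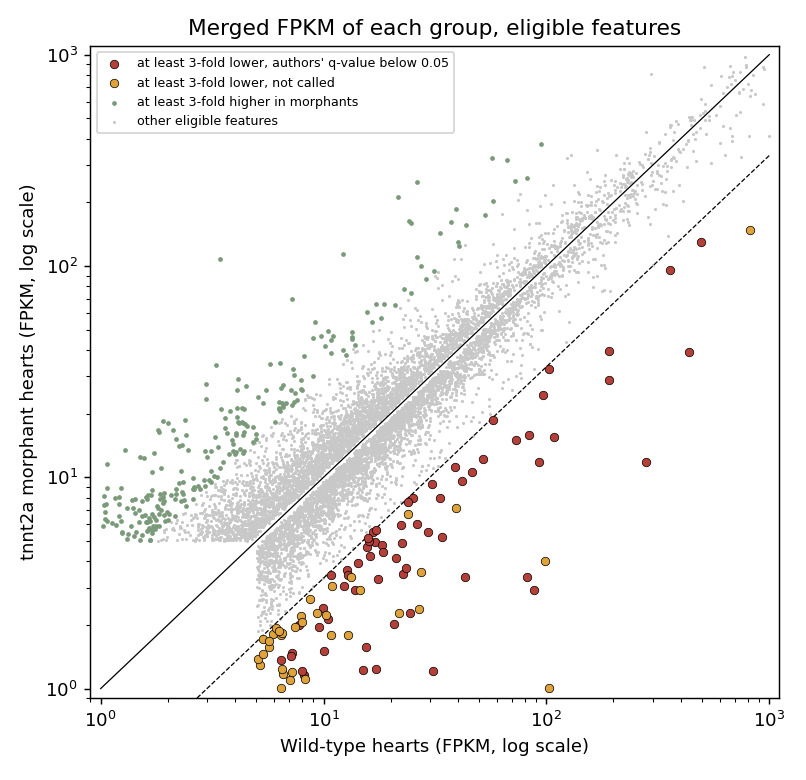
Merged FPKM of each of the 8054 eligible features in wild-type hearts (horizontal, log scale) and morphant hearts (vertical, log scale), with the 100 members in red (64 called by the authors' q-value) and amber (36 not called) and the 238 features at least 3-fold higher in green. The solid line marks equal values and the dashed line a 3-fold difference; the members lie below the dashed line and the features not called lie mostly at its low end.

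Of the 100 members, 64 were called lower at a q-value below 0.05 in the authors' deposited table. The share of features called lower was 3.60% among all eligible features and 2.91% among all listed features, but the fold that chose the members is part of the same contrast, so nothing is read from the difference. At a q-value below 0.01 in the authors' deposited table, 54 members were called, beside 2.37% of all eligible features called lower. At a q-value below 0.10 there, 69 members were called, beside 5.05% of all eligible features called lower. An unadjusted p-value below 0.05 was held by 86 members, beside 10.6% of all eligible features in the lower direction, in the authors' deposited table. The smallest p-value there, 5e-05, was held by 49 members, and it corresponds to a q-value of 0.00173. Of all 16383 listed features, 577 (3.52%) held it, in either direction. Of the 238 features at least 3-fold higher in morphants, 85 (35.7%) held it. Nothing is read from these shares either. Those 49 members cannot be ranked among themselves by this test. At the other end, 10 members had a q-value above 0.5 in the authors' deposited table. The share of all eligible features above that value was not counted.

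The 64 called members had a median of 4.74 FPKM in morphants and 22.3 FPKM in wild type, and the 36 members not called had 1.85 FPKM in morphants and 7.93 FPKM in wild type. Their median log2 folds lay closer together, at -2.22 for the called members and -2.02 for the others. Between 5 and 10 FPKM in wild type, 8 of 30 members were called. From 10 to below 20 FPKM 21 of 27 were called, from 20 to below 100 FPKM 27 of 33, and from 100 FPKM upward 8 of 10. Among all eligible features in the same bands, by the larger value, 1.48%, 3.46%, 4.83% and 6.50% were called lower in the authors' deposited table. The share called thus increased with abundance over the eligible features too, and the counts say nothing particular of the members.

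The 6 members that differed at least 20-fold were on 6 chromosomes, and 4 of them were called. Among all eligible features 3.60% were called lower, in the same contrast that gave the folds. The largest fold belonged to XLOC_019337 on chromosome 3 (14314140 to 14337240, 23100 bp wide), which stood at 1.01 FPKM in morphants and 102 FPKM in wild type. This is 101-fold lower, with a morphant value just above the limit of 1 FPKM, and its q-value in the authors' deposited table was 0.539. The fold is therefore the largest of the set without being called. XLOC_014518, a locus of 1042 bp on chromosome 21 (20347200 to 20348242) and the narrowest member, had 2.92 FPKM in morphants and 88.1 FPKM in wild type. It was 30.2-fold lower and carried the smallest q-value of the authors' deposited table, 0.00173.

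The next 4 members by fold lay between 23.6-fold and 25.7-fold lower. On chromosome 22 (12616798 to 12669060) a feature had 1.21 FPKM in morphants and 31.0 FPKM in wild type, and on chromosome 11 (13572447 to 13582003) another had 3.37 FPKM in morphants and 82.1 FPKM in wild type. A feature on chromosome 16 (29277797 to 29292379) stood at 11.9 FPKM in morphants and 280 FPKM in wild type, which is 23.6-fold lower. All 3 of these fell with a q-value of 0.00173 in the authors' deposited table. The fourth, on chromosome 25 (33550113 to 33564975), had 4.04 FPKM in morphants and 98.4 FPKM in wild type, with q = 0.337 in the authors' deposited table, which is not a call.

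Members ranked 7 to 10 by fold were between 11.3-fold and 13.8-fold lower. They had 1.24 FPKM in morphants and 17.2 FPKM in wild type on chromosome 6 (13742203 to 13762290), and 3.36 FPKM in morphants and 43.2 FPKM in wild type on chromosome 4 (90824 to 117908). On chromosome 5 (37184998 to 37216987) the values were 1.23 FPKM in morphants and 15.0 FPKM in wild type. These 3 were called. A chromosome 21 feature (29961865 to 29966215) at 2.37 FPKM in morphants and 26.7 FPKM in wild type had q = 0.483 in the authors' deposited table and was not called.

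**Figure D2:**
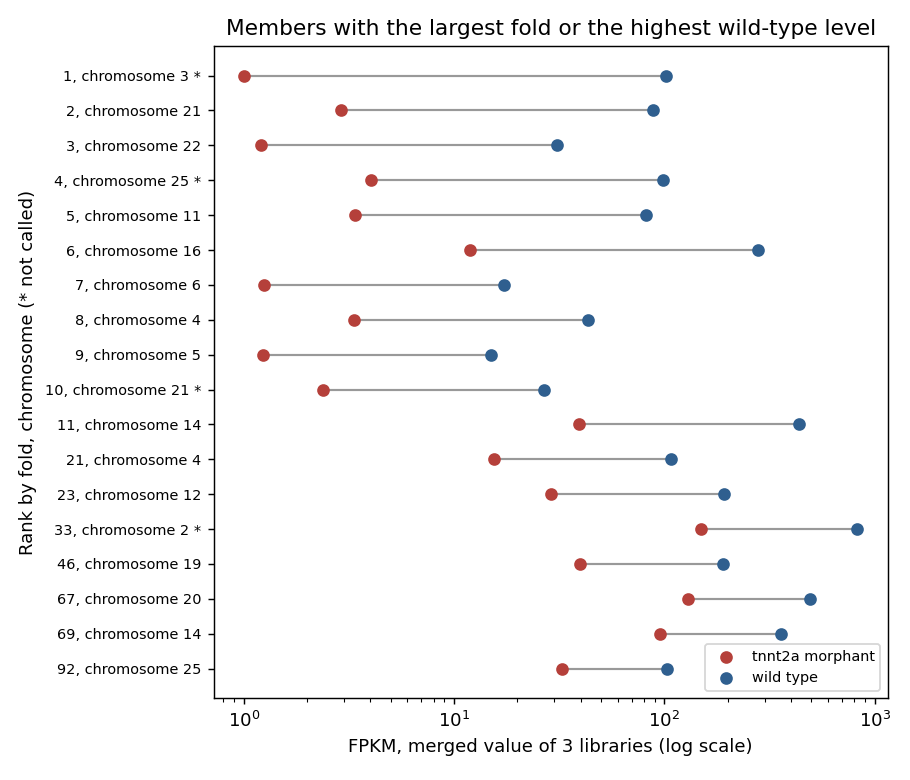
FPKM (log scale) of the 18 members with the largest fold or the highest wild-type level, one line per member, with the morphant value in red and the wild-type value in blue; labels give the rank by fold and the chromosome, and an asterisk marks members not called. The upper lines are the longest, from 1.01 against 102 FPKM at rank 1, and the lower ones are the abundant members with smaller folds.

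Among the 10 members of at least 100 FPKM in wild type, 8 were called, beside 6.5% of all eligible features in that band called lower. The most abundant, on chromosome 2 (7917804 to 7929243), stood at 149 FPKM in morphants and 823 FPKM in wild type, 5.53-fold lower. Its q-value in the authors' deposited table was 0.117, so it was not called. The other one not called is the chromosome 3 feature with the largest fold. Among the called ones, a feature on chromosome 14 (988826 to 1021981) fell most in FPKM, with 39.1 FPKM in morphants and 435 FPKM in wild type (11.1-fold lower). A chromosome 20 feature (9983545 to 9993078) had 130 FPKM in morphants and 494 FPKM in wild type. A second feature of chromosome 14 (31317097 to 31328184) had 95.2 FPKM in morphants and 359 FPKM in wild type. These 2 abundant features fell by similar factors, 3.79-fold and 3.77-fold.

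The remaining called members of this band fell between 3.15-fold and 6.97-fold, apart from the chromosome 16 feature described above. A chromosome 12 feature (16966954 to 16993856) had 28.9 FPKM in morphants and 192 FPKM in wild type. A narrow locus of 2460 bp on chromosome 19 (32579388 to 32581848) had 39.6 FPKM in morphants and 190 FPKM in wild type. On chromosome 4 (7382539 to 7397683) a feature had 15.4 FPKM in morphants and 108 FPKM in wild type. On chromosome 25 (33527665 to 33541952) a feature had 32.7 FPKM in morphants and 103 FPKM in wild type. All of them carried a q-value of 0.00173 in the authors' deposited table.

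The 30 members under 10 FPKM in wild type were bounded by the rule itself, because a morphant value of at least 1 FPKM allows them no fold above 10. The largest folds among them were 7.46, 7.03 and 6.61. The first, on chromosome 10 (22841346 to 22862023), had 1.10 FPKM in morphants and 8.23 FPKM in wild type and was not called. The second, on chromosome 4 (18996552 to 19039885), had 1.16 FPKM in morphants and 8.18 FPKM in wild type, and the third, on chromosome 12 (30471696 to 30503538), had 1.22 FPKM in morphants and 8.05 FPKM in wild type. Both of these were called. The 3 members of smallest fold in this range lay between 3.11-fold and 3.26-fold lower and none of them was called. Over all members, 32 were below 2 FPKM in morphants and 19 below 1.5 FPKM.

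At the 3-fold limit, the last 3 members were 3.06-fold, 3.06-fold and 3.01-fold lower, on chromosomes 14, 12 and 1. They had 5.61, 5.16 and 5.54 FPKM in morphants, against 17.2, 15.8 and 16.7 FPKM in wild type. The first 3 eligible features beyond the limit were 2.99-fold, 2.99-fold and 2.98-fold lower, on chromosomes 12, 13 and 23. They had 101, 2.14 and 3.44 FPKM in morphants, against 302, 6.41 and 10.2 FPKM in wild type. All 6 were called, beside 3.60% of all eligible features called lower, in the same contrast that gave the folds. Called features thus lay on both sides of the limit, and nothing more is read from these 6.

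The minimum of 1 FPKM and the upper limit of 1000 FPKM also kept out features with large differences. A further 14 features met every other condition, were at least 3-fold lower and had between 0 and 1 FPKM in morphants, and 2 of these were called. The larger fall of the called pair, on chromosome 17 (51851779 to 51983399), stood at 0.51 FPKM in morphants and 15.9 FPKM in wild type. Another 11 features were listed at 0 in morphants, of which 2 were called. The highest of the 11 stood at 108 FPKM in wild type with a q-value of 0.550 in the authors' deposited table. Among all listed features 2.91% were called lower, in the same contrast that gave the folds, so nothing is read from these counts. At 1000 FPKM or more, 5 features were at least 3-fold lower, and for 2 of them that limit was the only condition not met. A further 18 features at least 3-fold lower failed only because another row had the same locus.

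The authors' test statistic, which in Cuffdiff sets the log fold against an estimate of its own spread, ranged from -14.3 to -1.01 over the members. In the authors' deposited table its median was -3.86 for the called members and -1.77 for the others. Its strongest value belonged to the abundant chromosome 16 feature. The ranges overlapped: 16 of the 36 members not called had a statistic further from 0 than the weakest called member, at -1.81 in the authors' deposited table. The chromosome 3 and chromosome 25 members of rank 1 and rank 4 had -5.69 and -5.68 in the authors' deposited table, beyond the median of the called members, and were not called. The sources used here do not say how the authors' p-values follow from the statistic.

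**Figure D3:**
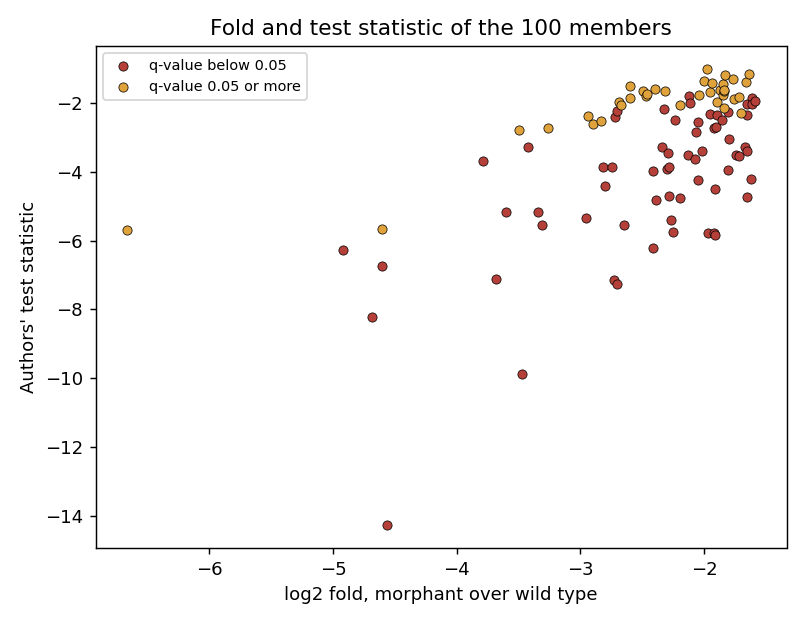
The log2 fold (morphant over wild type, horizontal) and the authors' test statistic (vertical) of the 100 members, with the 64 called members in red and the 36 others in amber. Most amber points lie near the top, and 2 of them have statistics of -5.69 and -5.68, beyond the median of the called members. The first of these 2, at a log2 fold of -6.67, stands to the left of every called member, the lowest of which is at -4.92.

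Features that were at least 3-fold higher in morphants under the same conditions outnumbered the members. There were 238 of them, 2.96% of the eligible features, and 141 were called higher in the authors' deposited table, where 4.71% of eligible features were called higher. They had medians of 13.5 FPKM in morphants and 3.08 FPKM in wild type and the quartiles of their log2 fold were 1.75 and 2.35. At a minimum of 5-fold there were 40 lower and 64 higher features, at 8-fold there were 15 of each, and at 10-fold there were 13 lower and 4 higher. Of those beyond 10-fold, 10 lower features and 1 higher feature were called, beside 3.60% of eligible features called lower and 4.71% called higher. At 20-fold the counts were 6 lower and 1 higher. No test of this difference was made, and the counts rest on few features at the largest folds.

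**Figure D4:**
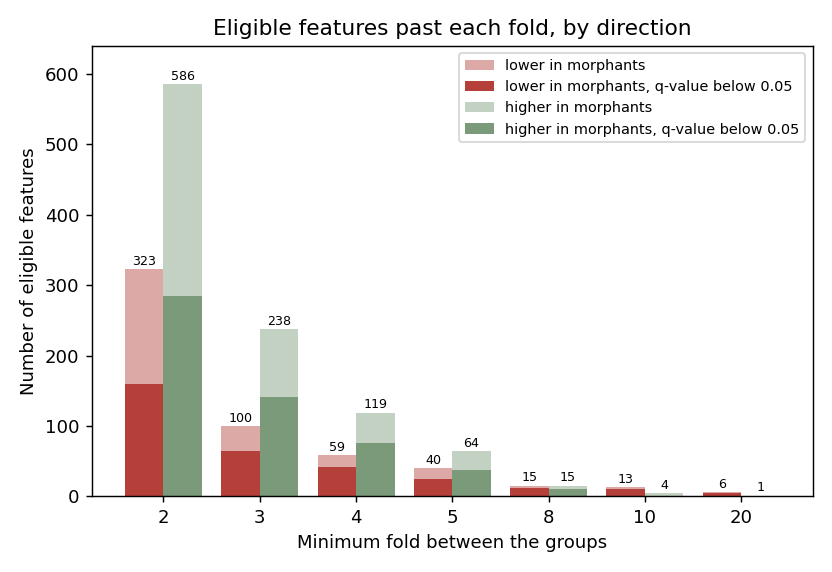
Number of eligible features (vertical) past each minimum fold (horizontal), with features lower in morphants in red and features higher in morphants in green; the full-colour part of each bar is the number called by the authors' q-value. The green bar is the taller one from 2-fold to 5-fold, both reach 15 at 8-fold, and the red bar is taller at 10-fold (13 against 4).

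The loci of the members were similar in width to those of the eligible features. They had a median width of 18132 bp (quartiles 7112 and 37113 bp), beside 18862 bp for the eligible features (quartiles 8643 and 39979 bp) and 10910 bp for the features at least 3-fold higher. Of the eligible features divided by width into 4 equal groups, 1.39% of the narrowest and 1.24% of the widest were members, against 4.77% and 1.74% for the 3-fold higher set. Called members had a median width of 22005 bp and members not called 14388 bp. From the narrowest to the widest group, 2.68%, 2.58%, 3.78% and 5.36% of all eligible features were called lower in the authors' deposited table. Calls were thus more frequent at wide loci over the eligible features too, and the 2 medians say nothing particular of the members. The widest member, on chromosome 11 (3316943 to 3475577), spanned 158634 bp, had 1.57 FPKM in morphants and 5.67 FPKM in wild type, and was not called. The next, on chromosome 7 (10956287 to 11100971), spanned 144684 bp, had 1.95 FPKM in morphants and 9.51 FPKM in wild type, and was called. Locus width includes introns and is not transcript length. None of the members overlapped another listed locus. Of the 8054 eligible features only 3 (0.0372%) did, beside 2380 (14.5%) of the 16383 listed features, so this is nothing particular of the members.

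Members were found at similar shares in each band of abundance. Their share of the eligible features was 1.31% from 5 to below 10 FPKM (by the larger value), 1.14% from 10 to below 20 FPKM, 1.18% from 20 to below 100 FPKM and 1.67% from 100 FPKM upward. The 3-fold higher features took 4.23% of the lowest band and 3.50% of the highest. The median log2 fold of the members was -1.97 in the lowest band and -2.60 in the highest. The minimum of 1 FPKM in both groups allows no fold above 10 in the lowest band. These shares and folds are thus partly fixed by the rule.

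Members lay on all 25 numbered chromosomes, between 1 and 8 on each. Chromosomes 2, 5, 14 and 21 held 8 each. Relative to the eligible features, chromosome 4 held the most, with 7 of 193 features (3.63%), followed by chromosome 21 with 2.65% and chromosome 14 with 2.45%. Chromosome 8 held the lowest share, with 1 member of 369 features (0.271%). All 7 members of chromosome 4 were called, on a chromosome where 14 of the 193 eligible features (7.25%) were called lower in the authors' deposited table, a higher share than on any other chromosome. On the same chromosome 2 features were at least 3-fold higher (1.04%). Besides the features already named, the members there included a locus at 25715279 to 25762109 with 5.21 FPKM in morphants and 34.0 FPKM in wild type, and a locus at 10975075 to 11025934 with 4.90 FPKM in morphants and 22.4 FPKM in wild type. These chromosomes were picked after the counts were seen, and no test was made.

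Some members lay close to one another in the genome. With starts less than 100 kb apart, 3 pairs of members were found, holding 6 of the 100 members, and each pair had consecutive identifiers. Within the same distance of members lay 181 eligible features that were not members. Members are 1.24% of the eligible features, and whether they lie closer together than other features was not tested. The closest pair was on chromosome 25, with a gap of 8161 bp between the loci. Its first feature (33527665 to 33541952) had 32.7 FPKM in morphants and 103 FPKM in wild type, and its second is the 24.4-fold lower feature given above. The wild-type levels of the 2 were alike, and the morphant levels were not. The first was called and the second was not (q = 0.337 in the authors' deposited table), and no spread is known for either.

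The second pair was on chromosome 21, where the loci at 13136388 to 13187672 and at 13196722 to 13217280 were 9050 bp apart. The first had 9.64 FPKM in morphants and 41.8 FPKM in wild type, the second had 4.17 FPKM in morphants and 21.1 FPKM in wild type, and both were called. The third pair, on chromosome 14, joined the abundant feature at 31317097 to 31328184 with one at 31410945 to 31415408, which had 1.72 FPKM in morphants and 5.34 FPKM in wild type and was not called. Whether the features of a pair belong to 1 gene is not known from the table.

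Eligible features around the members were lower in morphants about as often as those elsewhere. Within 100 kb of a member's start there were 181 eligible features that were not members, of which 45.9% were lower in morphants, beside 47.0% of the 7773 eligible features elsewhere. Their median log2 fold was 0.14, against 0.10 elsewhere. Of these neighbours 3 (1.66%) were from 2-fold to below 3-fold lower, against 2.83% of the features elsewhere. In steps of 50 kb the neighbours' median log2 fold lay between -0.13 and 0.26, with 35 to 51 pairs in each step.

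**Figure D5:**
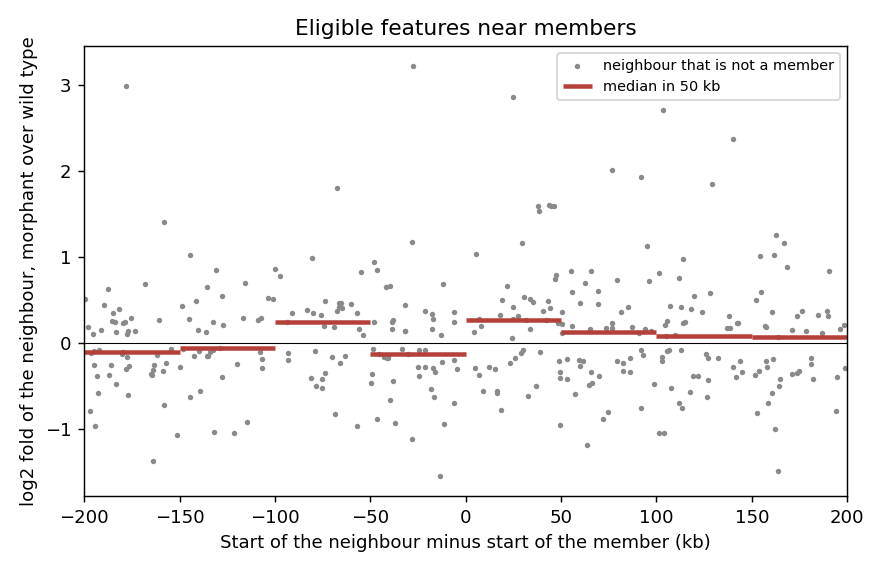
The log2 fold (morphant over wild type, vertical) of eligible features that are not members, by the distance of their start from the start of a member (horizontal, in kb); red bars give the median in each 50 kb. The medians lie between -0.13 and 0.24 to the left and between 0.07 and 0.26 to the right. Features that hardly differ are under-represented, so the distance of a median from the line of no difference is not a typical fold.

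For 9 members, a feature at least 3-fold higher in morphants started within 100 kb. Within that distance of members lay 181 eligible features that were not members, and 2.96% of all eligible features were at least 3-fold higher. Whether 9 is many or few was not tested. The widest contrast was on chromosome 21, where the member at 29961865 to 29966215 had 2.37 FPKM in morphants and 26.7 FPKM in wild type. The feature at 29934035 to 29943063 beside it had 114 FPKM in morphants and 12.3 FPKM in wild type, 9.26-fold higher, and was called. The member of that pair was not called. On chromosome 4 both features of such a pair were called: the member at 18996552 to 19039885 fell 7.03-fold, and the feature at 19042791 to 19044829 rose 3-fold, with 38.0 FPKM in morphants and 12.7 FPKM in wild type.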

How the data were processed

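RNA was sequenced from 3 pools of tnnt2a morphant and 3 pools of wild-type hearts. The submitters' processing notes name Cufflinks 2.2.1 and Cuffdiff, STAR 2.5.0c, cutadapt 1.9.1 and Trim Galore 0.4.1, and the build GRCz10, without roles. The authors merged the replicates into 1 FPKM value per feature and group, and deposited these FPKM values. They also deposited, for each feature, a p-value, its adjusted q-value and a score, the test statistic. The sources used here do not state the normalisation between libraries or the annotation.

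The columns headed control and sih (silent heart) were taken as wild type and morphant. Folds were recomputed from FPKM, and p-values and q-values were not. Depth is unknown, so no interval or detection floor was computed. No test was run here. Members, lists and alternatives were chosen with earlier results of these data known. Features named in the text are the 10 with the largest fold, the 10 highest in wild type, those at the 3-fold limit, uncalled ones of at least 100 FPKM, neighbouring members, the widest and narrowest, and the extremes below 10 FPKM; other features named were picked after their values were seen. The member rule was tested on simulated data. Alternatives changed the fold, the FPKM minimum, a pseudocount, the centre, the q-value and the neighbour distance. Python 3.11.15, numpy 2.4.6 and pandas 2.3.3 were used.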

Additional observations from a re-analysis of the deposited data

How the results depend on the processing

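The number of members was 323 with a minimum fold of 2, 59 with a minimum fold of 4, and 581 with no minimum FPKM in either group. Of these, 159, 41 and 75 were called by the authors' q-value. The 581 were drawn from 12672 features, because more are eligible without the minimum, and the share called lower among those was not counted. The other settings for the number of members gave 68 to 120, within 1.5 times of 100. Folds recentred on the eligible median of 0.10 gave 120 lower and 208 higher features, so that 36.6% were lower, against 29.6% uncentred. Because rows with p-values above 0.767 are missing, that median need not be the centre of all features. The change in the share is therefore not read as a shift between the libraries. A pseudocount of 1 kept 73 of the members, of which 53 were called. Of the 8054 eligible features 3.60% were called lower. Fold and call come from the same contrast, so nothing is read from the counts called. The median log2 fold of the members was -1.88 with the pseudocount and -2.26 with recentred folds. It was -2.27 with a minimum of 0.5 FPKM, -2.07 with 2 FPKM and -2.26 with a larger value from 10 FPKM. At 50 kb there was 1 pair of neighbouring members, and at 200 kb there were 3. No named member turned its direction with the pseudocount or recentring, which cannot reverse folds of this size. No paired analysis was possible because each group has a single merged value, and leaving out each replicate was not run for the same reason.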

Other observations

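Of the 100 members, 8 started within the first megabase of a chromosome, on 8 chromosomes, beside 2.64% of the eligible features that were not members and 3.78% of the 238 features at least 3-fold higher in morphants. This was noticed after the positions were seen, and no test was made. Of all eligible features 2.71% started there, and of the eligible features lower in morphants 2.16%. Those lower features numbered 83, members included, and 13 of them were called by the authors' q-value. Of the 8 members, 5 were called. They included the chromosome 4 and chromosome 14 features at 3.36 FPKM and 39.1 FPKM in morphants, against 43.2 FPKM and 435 FPKM in wild type, and a chromosome 10 feature (110867 to 115336) at 2.28 FPKM in morphants and 24.5 FPKM in wild type. Within the first 2 megabases the count was still 8, against 4.44% of eligible features that were not members, and within the first 5 megabases it was 10, against 9.82%. With a minimum fold of 2, 17 of 323 features started within the first megabase. Only the end of each chromosome where the coordinates begin was counted. The opposite end was not, so nothing is said of chromosome ends in general.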
